A study of Mus musculus with 4 samples.

Results

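Exonic circular RNAs (circRNAs) whose ends lie more than 50000 bases apart on the chromosome were examined in the developing lung of C57BL/6 mice. They were taken as every circRNA of the exon type whose span, counted from the start to the end of the circle, was above 50000 bases. This gave 841 circRNAs of 11569 exonic ones, and of 13499 circRNAs of any type. The 841 circles held 5252 back-splice junction reads and came from 435 host genes, of which 433 were protein-coding. Total RNA of lung had been sequenced as 1 library for each of 4 stages: the pseudoglandular stage at embryonic day 14.5, the canalicular stage at day 16.5, the terminal sac stage at day 18.5 and the alveolar stage at day 7.5 of newborn life. The labels give no treatment or mutant allele, nor the number of animals behind each library. Since each stage has 1 library, differences between stages have no replicate check and carry no p-value. Intervals are 95% intervals that cover counting error alone, and PCR copies of one molecule are counted as separate reads.

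A circRNA forms when the spliceosome joins the donor site at the end of a downstream exon to the acceptor site at the start of an upstream exon, a reaction called back-splicing. The introns inside the circle are usually removed, so the length of a circle on the chromosome can exceed the length of the RNA many times over. The first exon of a transcript has no acceptor site and the last has no donor site, which is why annotated circles as a rule begin at exon 2 or later. Long flanking introns, often with inverted repeats that can pair, are known to favour back-splicing. Circles lack free ends, resist exonucleases and can outlast the linear transcript of the same gene.

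The libraries listed 25983, 31218, 36156 and 28332 junction reads from the pseudoglandular to the alveolar stage, and every listed circRNA had at least 2. All listed reads came from 1 flow-cell lane. Circles of Sftpc, the surfactant protein C gene of alveolar type 2 cells, were listed in the terminal sac library with 374 junction reads and in the alveolar library with 521, and in neither earlier library. Few of the 841 circles came from cell type marker genes: 10 circles of 6 hosts, among them Ldb2, Prex2, Slc8a1, Ttn and Ryr2, held 71 reads, 17, 15, 27 and 12 from the earliest to the latest stage. In bulk tissue, fewer cells of a type and less RNA per cell cannot be told apart.

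The junctions of 6 of the most abundant circles are shown because each one identifies its molecule, and the first results concern these circles. Each line gives the host, the exons of the annotated transcript, the position on mm10 and 30 bases across the back-splice junction. Capitals mark the last 15 bases of the donor exon, and lower case marks the first 15 bases of the acceptor exon that follows it in the circle. Sequences, exon numbers and strands were read from GENCODE release M21 transcripts, since the circRNA lists give no strand.

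Akap7 exons 2 to 7 (chr10:25220611-25289730, minus strand): CTTCCATCGTGATCGgaaaactagattccg
Ncoa2 exons 2 to 4 (chr1:13221307-13286025, minus strand): AGATCAAAGAGCAAGattttcctcgcatct
Tmem164 exons 2 to 6 (chrX:142752040-142834393, plus strand): GAAAATAGACTAAAGatcttcctcctggcc
Smg6 exons 2 to 10 (chr11:74928993-74990215, plus strand): ACTCCCAGTTGAAAGaaaacatgaaggaac
Nfib exons 2 to 6 (chr4:82350389-82498769, minus strand): ATGAACGAGATCAAGgatgaattccaccca
Ppp1r9a exons 6 to 15 (chr6:5100432-5154207, plus strand): AAAACAGGGTCCAAGactggagagtatgcc

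The leading circle came from Akap7, which encodes an anchoring protein for protein kinase A. It joined exon 7 back to exon 2 and had 28, 47, 76 and 50 junction reads in the pseudoglandular, canalicular, terminal sac and alveolar libraries. Its span of 69120 bases held 840 bases of exon. The circle of Ncoa2, a nuclear receptor coactivator gene, joined exons 2 to 4 and had 28, 38, 66 and 40 reads. Tmem164, a transmembrane protein gene on the X chromosome, had 15, 26, 49 and 34 reads for exons 2 to 6. These 3 circles shared one profile, with the lowest count in the pseudoglandular and the highest in the terminal sac library.

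Smg6, which encodes the endonuclease of nonsense-mediated mRNA decay, ran the other way. Its circle of exons 2 to 10 had 49, 36, 16 and 22 reads, with the highest count in the pseudoglandular and the lowest in the terminal sac library. Nfib, which encodes a transcription factor required for lung maturation, had 20, 18, 15 and 8 reads for exons 2 to 6. Ppp1r9a, the gene of the actin-binding phosphatase scaffold neurabin, had 9, 14, 19 and 17 reads for exons 6 to 15. Arid1b, a subunit gene of the BAF chromatin remodelling complex, had 4, 14, 22 and 9 reads for exons 2 to 4.

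Per 10000 exon-type junction reads, the Akap7 circle stood at 11.8, 16.1, 22.4 and 19 in order of stage, and the Tmem164 circle at 6.32, 8.90, 14.4 and 12.9. The order of these levels was therefore the same after allowing for depth. The 15 most abundant circles held 1257 reads, which is 23.9% of all reads in circles over 50 kb, and 11 of the 15 began at exon 2. Long circles did not reach the top of the whole list, where 50 shorter exonic circles had more reads than the 201 of Akap7. Of the 51 long circles with 20 or more reads in all, 7 peaked at the pseudoglandular stage, 17 at the canalicular, 25 at the terminal sac and 2 at the alveolar. Ties were given to the earlier stage, and these counts are not scaled for depth, which was greatest in the terminal sac library.

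**Figure D1:**
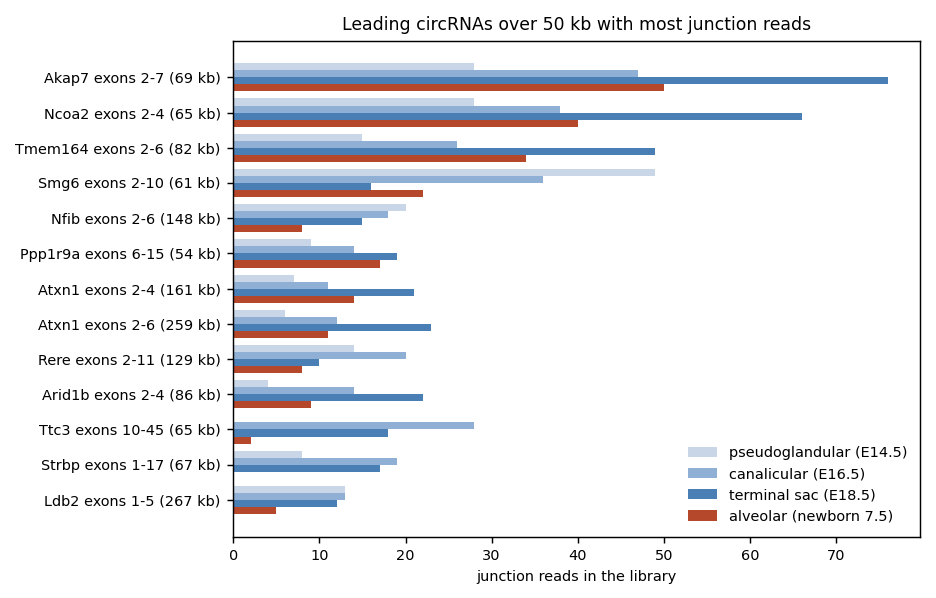
Junction reads (horizontal axis) of 13 of the 15 circRNAs over 50 kb with most reads, with 1 bar per library in order of stage. Akap7, Ncoa2 and Tmem164 peak in the terminal sac library, and Smg6 in the pseudoglandular one. For Ttc3, Strbp and Ldb2 the exon numbers name the exon in which an end lies, since only 1 end is at an annotated boundary.

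Introns made up most of the span of the long circles. The long circles spanned a median of 73643 bases (50105 to 476280), against 9154 bases for the other 10728 exonic circRNAs. Their median spliced length, the summed length of the annotated exons between the ends, was 1101 bases (quartiles 651 and 1977), against 633 bases for the others. The exons made up a median of 1.32% of the span of long circles and 7.38% of that of the others. Long circles held a median of 7 exons, against 4, and their largest internal intron had a median of 33758 bases, against 4321. Span was the rule by which the long circles were chosen, so these sizes describe them and are no finding.

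Spliced length rose less than span did along the whole range. Circles of up to 1 kb had a median spliced length of 331 bases, those of 5 to 10 kb 592 bases, those of 20 to 50 kb 966 bases and those of 50 to 100 kb 1060 bases. For circles of 100 to 200 kb it was 1215 bases, and for those over 200 kb 1101 bases. Among the 739 long circles with both ends at exon boundaries, 110 were under 500 bases when spliced, 22 had 2 exons and 70 had 20 or more.

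The introns outside the circle were also long. The intron upstream of the circle had a median of 19677 bases in long circles and 6419 bases in the others, and the downstream intron 18735 and 4742 bases. The host genes were longer too, with medians of 262745 and 82988 bases, so that intron length and gene length were not separated. Both flanking medians were higher for long circles in 4 of 4 libraries (two-sided exact sign-flip permutation test over libraries, p = 0.125, the smallest that 4 libraries allow). The libraries share circles, hosts and annotation, so they are not independent replicates of intron length.

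Long circles began at exon 2 more often than the others. Of long circles with both ends at exon boundaries, 305 of 739 or 41.3% (37.7 to 44.9) began there, against 28.5% (27.5 to 29.4) of the others. By library the share was 50.2%, 48.5%, 47.0% and 41.7% for long circles in order of stage, against 35.1%, 33.1%, 30.6% and 29.8% for the others. It was higher in 4 of 4 libraries (two-sided exact sign-flip permutation test, p = 0.125, the smallest possible). Weighted by reads it was 62.4%, 62.0%, 62.1% and 55.7% for long circles, against 48.1%, 45.4%, 43.9% and 34.4%. The share rose within the long class, being 37.9% for spans of 50 to 100 kb, 44.6% for 100 to 200 kb and 65.3% for the 54 circles over 200 kb. Among shorter circles it was 29.8% up to 1 kb, 23.0% at 1 to 5 kb, 26.3% at 5 to 10 kb, 30.1% at 10 to 20 kb and 33.6% at 20 to 50 kb. Long circles were chosen by span, and the part of this rule in their exon 2 share was not tested. The 4 libraries share circles, hosts and annotation, so they are not independent replicates of this share.

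Start codon and coding content were also compared, without matching circles for their first exon or their number of exons. Long circles held an annotated start codon in 25.8% of cases (22.7 to 29.1), against 14.8% (14.1 to 15.5) for the others. They were wholly coding in 70.7% (67.2 to 73.9), against 83.9% (83.1 to 84.6). Among wholly coding circles a length that is a multiple of 3 was found in 41.7% (37.4 to 46.1) of long circles and 40.2% (39.1 to 41.3) of the others. At the junction, the donor exon ended in AG in 57.4% of long circles and 58.6% of the others, and the acceptor exon began with G in 46.5% and 44.6%. For these last 3 measures the intervals overlapped.

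**Figure D2:**
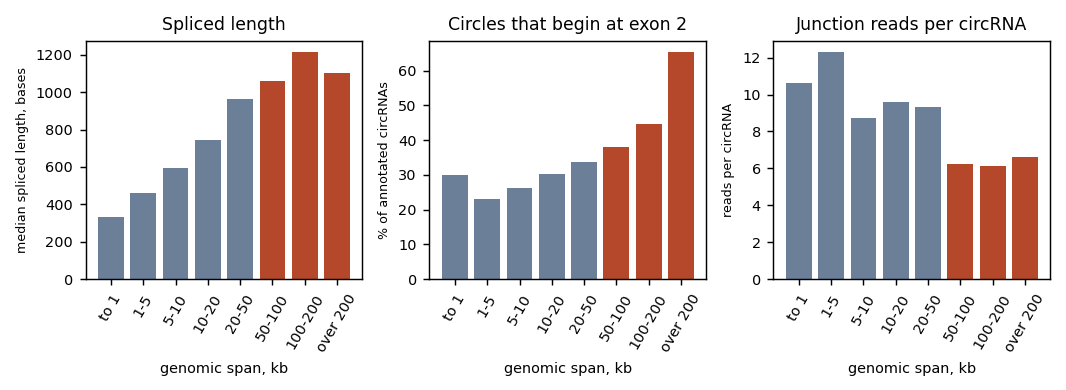
Exonic circRNAs binned by genomic span in kb, with spans over 50 kb in red and shorter ones in blue. The panels show the median spliced length in bases, the percentage that begin at exon 2 among circRNAs with both ends at annotated exon boundaries, and the mean junction reads per circRNA over the 4 libraries. Spliced length flattens above 50 kb, the exon 2 share climbs to 65.3%, and mean reads per circRNA are lower above 50 kb.

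Long circles were often members of a family that shares a splice site. Of the 841, 63.5% used an acceptor end that another exonic circRNA also used, against 38.3% of the other exonic circRNAs. For the donor end these shares were 46.8% and 29.7%, and for either end 77.9% and 55.0%. The shares were not matched for the number of circles that a host gives. Hosts with 2 or more long circles gave 586 of the 841. In all, 547 long circles (65.0%) shared an end with a circle of 50 kb or less. The following junctions show such families: within a host the lower-case acceptor bases are identical, while the donor bases in capitals change with the exon that closes the circle.

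Atxn1 exons 2 to 4 (chr13:45795509-45956575, minus strand): AGGCAAATGGTACAGaagtatcctgcaccg
Atxn1 exons 2 to 5 (chr13:45735115-45956575, minus strand): TGCTGTTGGCAGAGGaagtatcctgcaccg
Atxn1 exons 2 to 6 (chr13:45697821-45956575, minus strand): AGCATAGTGAATGCTaagtatcctgcaccg
Rere exons 2 to 7 (chr4:150406196-150477468, plus strand): CAACCCTGAGACAAGaatatttgaaacgtt
Rere exons 2 to 10 (chr4:150406196-150510038, plus strand): AATGCACTGAACACAaatatttgaaacgtt
Rere exons 2 to 11 (chr4:150406196-150534945, plus strand): ACAGAGGATGAAGTGaatatttgaaacgtt

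Atxn1, which encodes ataxin 1, a protein that binds transcriptional repressors, had an exon 2 family made almost wholly of long circles. Over its host gene, long circles held 18, 25, 84 and 29 reads, while shorter ones held 0, 2, 0 and 0. The circle of exons 2 to 4 had 7, 11, 21 and 14 reads and that of exons 2 to 6 had 6, 12, 23 and 11. The circle of exons 2 to 5 had 5 pseudoglandular reads, was not listed in the canalicular library, and had 33 terminal sac and 4 alveolar reads. This circle was therefore more concentrated in the terminal sac library than the circles that close 1 exon earlier and 1 exon later.

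Rere, a transcriptional co-regulator gene, and Stag1, which encodes a cohesin subunit, had most long circles, 12 each. Cep112, Rbms3, Ttc6, Adgrl3 and Nckap5 had 8 each. In Rere, 6 long and 3 shorter circles used the acceptor of exon 2. The shortest, exon 2 alone, had 63, 54, 53 and 63 reads, and the circle of exons 2 to 4 had 26, 23, 30 and 22. Among long ones, exons 2 to 11 had 14, 20, 10 and 8 reads, exons 2 to 10 had 12, 15 and 6 reads with no alveolar listing, and exons 2 to 7 had 4, 16 and 2 reads with no alveolar listing.

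The balance of long and shorter circles within a host differed between stages for Rere and Stag1. Long circles held 30.8% (24.2 to 38.0), 43.8% (36.6 to 51.1), 27.0% (19.8 to 35.1) and 14.3% (8.69 to 21.6) of the Rere reads in order of stage. For Stag1 they held 48.9% (34.1 to 63.9), 47.9% (33.3 to 62.8), 76.0% (61.8 to 86.9) and 16.7% (3.58 to 41.4). These are shares of circular reads within 1 library. Depth does not fully cancel in them, since a circle is listed only with at least 2 reads and circles with few reads can drop out. The effect of this on the shares was not tested. The Stag1 alveolar share rests on 3 long and 15 shorter reads. In both hosts the alveolar interval lay below that of the library with the highest share.

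**Figure D3:**
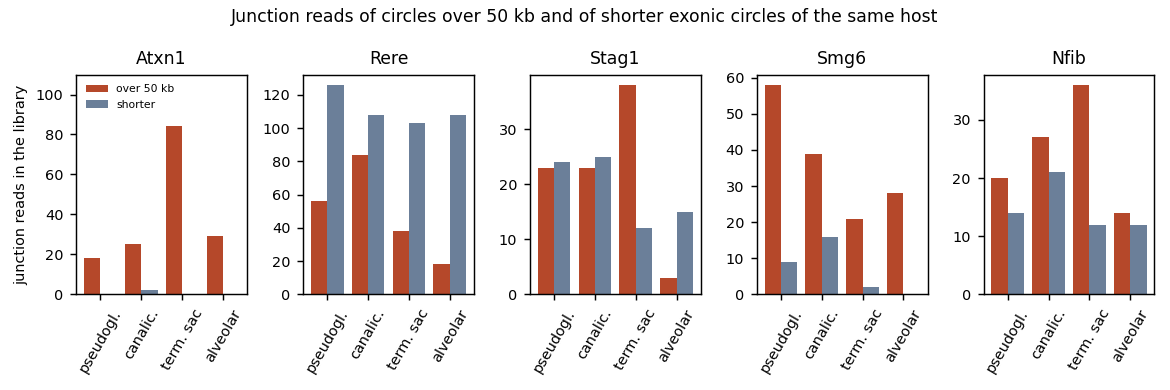
Junction reads of circles over 50 kb (red) and of shorter exonic circles (blue) of 5 host genes, by library in order of stage; each panel has its own vertical axis. Long circles of Rere are lowest at 18 alveolar reads while its shorter ones hold 103 to 126, and Atxn1 has almost only long circles.

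Over all hosts, 255 had 1 long circle and 180 had 2 or more, which together held 586 of the 841. Hosts with 5 or more numbered 28. Of the 435 hosts, 383 also gave shorter exonic circles and 52 gave none. The most abundant exonic circle was a long one in 142 hosts, including 90 of the 383 that also made shorter ones. Cpq, which encodes a plasma carboxypeptidase, gave only long circles. Its 4 circles on the acceptor of exon 3 held 8, 12, 17 and 12 reads in order of stage.

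The hosts were grouped by function with lists drawn up for these data. The lists are incomplete, and the share of each group among all exonic circRNAs is not given. The counts therefore describe the lists and are not read as a trait of long circles. Chromatin and transcription regulators were the group with most long circles, 106 from 41 of the 92 listed genes with any exonic circle, and they held 18.1% of long-circle reads. Their share was 20.9% (18.5 to 23.5), 18.2% (16.3 to 20.2), 19.3% (17.5 to 21.3) and 13.1% (11.1 to 15.4) in order of stage. Ncoa2, Nfib, Rere, Arid1b, Mllt10 and Stag1 led the group. Its list of 109 genes leaves out Atxn1 and the homeobox gene Zfhx3, whose long circles held 156 and 38 reads. The level and the stage values of the group depend on such choices. Mllt10, a gene for a cofactor of the histone methyltransferase DOT1L, had 12, 7, 18 and 5 reads for exons 4 to 10. Kinases and phosphatases followed with 61 circles of 26 hosts and 9.31% of reads.

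The list of RNA-binding and processing genes had 26 long circles of 10 hosts, with 6.39% (4.99 to 8.05), 6.11% (4.95 to 7.45), 3.25% (2.46 to 4.20) and 3.83% (2.73 to 5.23) of long-circle reads in order of stage. Of its 252 reads, 146 came from Smg6. It leaves out Strbp and Eri3, whose long circles held 8, 25, 25 and 2 reads and 14, 24, 0 and 2 reads. The stage values of the list depend on such choices. The list of channels, transporters and calcium-handling genes held 4.10%, 3.42%, 3.60% and 6.26% (4.83 to 7.95 in the alveolar library). Of its 218 reads, 145 came from Tmem164, and of its 62 alveolar reads, 42. Tmem164 is a transmembrane protein gene whose place on this list is uncertain. These shares are therefore not read as a result about channels or transporters. Cytoskeletal and adhesion genes had 57 circles of 27 hosts, small GTPase regulators 49 of 25, membrane traffic and lipid genes 44 of 18 and the ubiquitin system 23 of 13. Each of these last 4 groups held less than 5% of long-circle reads.

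The junction ratio is the share of junction reads at the ends of a circle, computed as 2 times the junction reads over that value plus the non-junction reads that run linearly across the same ends. Pooled over all long circles it was 1.79%, 2.18%, 2.54% and 1.51% in order of stage, against 1.73%, 1.86%, 1.82% and 1.88% for the other exonic circRNAs. The pooled ratio was higher for long circles in 3 of 4 libraries and lower in the alveolar one (two-sided exact sign-flip permutation test, p = 0.500). The median over circles was 2.65%, 2.39%, 2.56% and 2.22%, against 1.88%, 1.86%, 2.38% and 2.16%, and so higher for long circles in 4 of 4 libraries (p = 0.125 by the same exact test). Mean reads per circle were 4.19, 4.73, 4.85 and 4.11, against 6.04, 6.73, 7.01 and 6.76, and lower for long circles in 4 of 4 libraries (exact p = 0.125). The median was 3 reads per circle for long circles and for the others in each library, so the means differed while the medians did not.

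**Figure D4:**
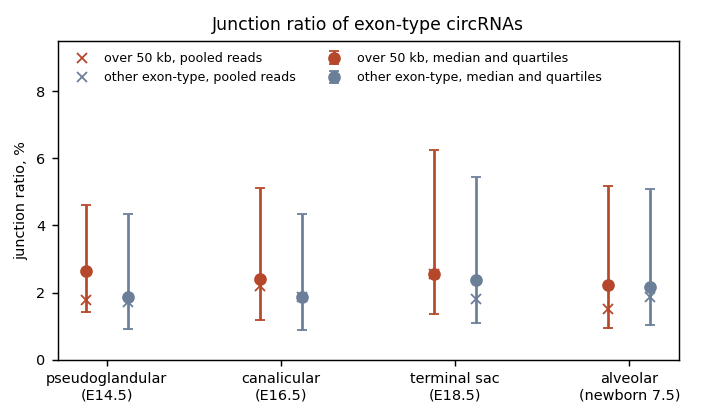
Junction ratio in percent by library, for circles over 50 kb (red) and other exonic circRNAs (blue). Points with bars are medians and quartiles over circles, and crosses are ratios of pooled reads; the medians of long circles are higher in each library, and the pooled ratio of long circles falls to 1.51% in the alveolar library.

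Among the 95 long circles with 10 or more reads, the pooled ratio over the libraries ranged from 0.204% to 55.8%. It was highest for Zcwpw2 (a zinc-finger protein gene), at 46.2%, 66.7% and 53.3% in the pseudoglandular, terminal sac and alveolar libraries, with 12 junction and 19 non-junction reads in all. Rims1, a presynaptic scaffold gene, reached 42.6% with 13 junction reads. Akap7 stood at 38.5% with 201 junction reads, and Ube2cbp, a ubiquitin ligase gene, and Cep112, a centrosomal protein gene, at 27.4% and 27.2%. The values of Zcwpw2, Rims1 and Ube2cbp rest on at most 13 junction reads each. No annotated transcript of Zcwpw2 held both ends of its circle. The lowest ratios were 0.204% for Gpc3, which encodes a glypican, 0.778% for Plxdc2, 0.840% for Nfib exons 2 to 8, 1.10% for the cyclin-dependent kinase gene Cdk14 and 1.12% for the DNA primase subunit gene Prim2. Gpc3 had 10 junction reads beside 9767 non-junction reads.

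The junction ratio of the Akap7, Ncoa2 and Tmem164 circles had the same order over the stages as their counts. Junction reads enter both measures, so the ratio is no separate evidence for the change. For Akap7 it was 28.9% (20.6 to 38.0) in the pseudoglandular, 33.7% (26.5 to 41.3) in the canalicular and 37.5% (29.9 to 45.2) in the alveolar library. In the terminal sac library it had an interval of 42.8% to 57.0%, from 76 junction and 152 non-junction reads. For Ncoa2 it was 11.7% (8.0 to 16.3), 17.2% (12.6 to 22.5), 30.6% (24.9 to 36.6) and 18.5% (13.7 to 23.9). Tmem164 showed 7.75%, 12.6%, 19.8% and 16.7%. In each of these 3 the terminal sac ratio was the highest, and its interval lay wholly above the pseudoglandular one.

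Smg6 exons 2 to 10 again ran the other way, at 28.3% (22.2 to 35.0), 27.5% (20.5 to 35.2), 15.1% (9.05 to 22.9) and 17.4% (11.4 to 24.7). Arid1b reached 14.7% (9.57 to 21) in the terminal sac library, against 2.19% (0.604 to 5.47) in the pseudoglandular one. Atxn1 exons 2 to 4 held a level ratio of 8.70%, 8.73%, 8.22% and 9.12% while its reads ran from 7 to 21. Nfib exons 2 to 6 had 2.07%, 1.70%, 2.09% and 0.694%. Over the 1838 circRNAs of any type listed in both the terminal sac and the canalicular library, the junction to non-junction ratio was higher by a median of 1.40-fold in the terminal sac library, and over the 98 long ones by 1.20-fold. The part of this general shift in the rise of single circles was not tested.

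Most long circles were seen in 1 library only. They were listed in 1, 2, 3 and 4 libraries in 654, 92, 57 and 38 cases, against 7645, 1505, 742 and 836 of the other exonic circRNAs. The share in 1 library was 77.8% (74.8 to 80.5) for long circles and 71.3% (70.4 to 72.1) for the others, and the share in 4 libraries 4.52% (3.22 to 6.15) and 7.79% (7.29 to 8.32). The 38 circles in every library held 33.7% of long-circle reads, against 53.9% for their shorter counterparts. They came from 31 hosts, and 27 of the 35 with both ends at exon boundaries began at exon 2.

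Read number can enter this difference. In all, 42.3% of long circles and 37.7% of the others had 2 reads, and a circle of 2 reads can be listed in 1 library alone. At matched totals, circles of 10 to 19 reads were in 4 libraries in 3 of 44 long cases (6.82%, 1.43 to 18.7) and 139 of 908 others (15.3%, 13.0 to 17.8). At 20 to 49 reads it was 24 of 41 (58.5%, 42.1 to 73.7) and 416 of 582 (71.5%, 67.6 to 75.1). At 50 or more it was 10 of 10 and 280 of 303. The intervals overlapped at each of these 3 levels, but overlap is no test of a difference and none was run. At 5 to 9 reads, 47.1% (38.7 to 55.8) of long circles and 39.1% (36.9 to 41.4) of the others were in 1 library. The part of read number in the difference in sharing was not tested. The only long circle with 20 or more reads that was listed in a single library was that of Phf21a, a gene of the LSD1-CoREST complex, with 20 canalicular reads.

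Each library contributed circles seen nowhere else: 132 at the pseudoglandular stage, 180 at the canalicular, 209 at the terminal sac and 133 at the alveolar. The libraries listed 250, 315, 355 and 241 long circles in all. These made up 6.25% (5.52 to 7.04), 7.10% (6.36 to 7.89), 7.16% (6.46 to 7.92) and 6.04% (5.32 to 6.83) of listed exonic circRNAs. By junction reads the share was 4.42% (4.16 to 4.69), 5.10% (4.85 to 5.36), 5.07% (4.84 to 5.31) and 3.76% (3.54 to 4.0), from 1048, 1490, 1723 and 991 reads.

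The share of reads was lowest in the alveolar library. It was 0.742 times that of the terminal sac library (0.686 to 0.803) and 0.852 times that of the pseudoglandular one (0.780 to 0.930). The share was also taken without a class of marked circles, which was defined after the data had been seen. Its threshold of reads per alignment pattern is a choice. Circles whose ends carried direct repeats (6 or more bases), or with 4 or more reads per alignment pattern in a library with 10 or more reads, held 1.14% of long-circle reads and 8.89% of the reads of other exonic circles. Without these marked circles the alveolar share was 0.822 times the terminal sac one (0.759 to 0.889), and 0.955 times the pseudoglandular one (0.874 to 1.04), an interval that includes 1. The part of the marked circles in the low alveolar share was not tested. The canalicular share was 1.15 times the pseudoglandular one (1.07 to 1.25), or 1.16 without marked circles. The terminal sac share was 0.995 times the canalicular one (0.928 to 1.07).

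**Figure D5:**
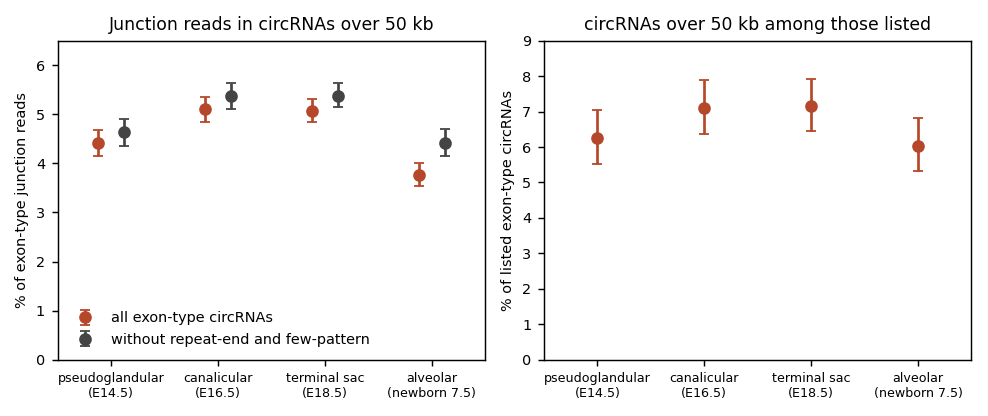
Share of circRNAs over 50 kb in percent by library, of exon-type junction reads (left) and of listed exon-type circRNAs (right), with exact 95% intervals for counting error. Dark points leave out circRNAs with repeated ends or few alignment patterns; the alveolar read share is 3.76% with them and 4.42% without.

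Single circles were compared between libraries where the pair had 10 or more reads of the circle. A circle was called higher or lower when its share of listed junction reads differed at least 2-fold and the interval of the ratio excluded 1. A circle that a library does not list was set at 3 reads there. Its fold is then given as at least that value, which is a bound only at this setting. The interval still covers counting error, and what further filters by the authors removed is not known. The junctions of 4 further circles that differed between libraries are shown, with capitals and lower case as before.

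Stag1 exons 2 to 9 (chr9:100705153-100803354, plus strand): TGTTCATCGATACCGgtgtgactttgaggt
Phf21a exons 2 to 10 (chr2:92214049-92330808, plus strand): AGCCTGGAGAAACAGgggactggagagctg
Eri3 exons 3 to 7 (chr4:117564621-117615241, plus strand): ATTAATCTAAAAAAGttttagatgcctctg
Unc5c exons 2 to 4 (chr3:141677987-141733941, plus strand): ATCCCAGTGGCTGAGatgatgaattttttc

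The latest stage was compared with the earliest, alveolar against pseudoglandular. Of 34 long circles compared, 1 was higher and 4 were lower, or 14.7% in all. Over all 933 circRNAs compared, 12.2% were higher and 17.4% lower, 29.6% in all. Tmem164 exons 2 to 6 was 2.08-fold higher (1.10 to 4.11), with 34 alveolar and 15 pseudoglandular reads. Smg6 exons 2 to 10 was 2.43-fold lower (1.44 to 4.22), with 22 and 49 reads, and Nfib exons 2 to 6 was 2.73-fold lower (1.15 to 7.16), with 8 and 20. Rere exons 2 to 10 and Stag1 exons 2 to 9 were not listed in the alveolar library and had 12 pseudoglandular reads each. Each was at least 4.36-fold lower (1.18 to 24.1). The median log2 ratio was -0.66 over long circles and -0.12 over all circRNAs compared. The 4 lower calls were not made when libraries were scaled by the median ratio of non-junction reads, which gave 3 higher and 0 lower, whereas Tmem164 was called higher under each of 5 scalings.

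For the canalicular against the pseudoglandular library, 7 of 53 long circles were higher and 0 lower. The background over all 1017 circRNAs was 8.16% higher and 9.83% lower, 18.0% in all. In all, 13.2% of long circles were called, below the 18.0% of the background. By direction, 13.2% were higher and 0% lower, with no test against the background of either direction. Among circles listed in both libraries 4 were higher and 0 lower, and above 40000 bases 9 were higher and 2 lower. The split is therefore not read as a trait of long circles. Ttc3, a ubiquitin ligase gene, led with at least 7.77-fold (2.40 to 39.9) for a circle of 28 canalicular reads. The pseudoglandular library does not list that circle, and 1 of its ends lies at an annotated boundary. Phf21a exons 2 to 10, with 20 reads and no pseudoglandular listing, stood at least 5.55-fold higher (1.65 to 29.2). Cep112 exons 22 to 25, with 19 reads and likewise no listing, stood at least 5.27-fold higher (1.55 to 27.8). Dyrk1a, a kinase gene, was 4.16-fold higher (1.39 to 16.7; 20 and 4 reads), Rere exons 2 to 7 3.33-fold (1.07 to 13.7; 16 and 4) and Eri3, an exoribonuclease-family gene, 2.62-fold (1.08 to 7.25; 22 and 7). All 7 were called higher under each of 5 scalings. The median log2 ratio was 0.32 over long circles and 0.07 over all circRNAs.

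In the step to the terminal sac library, against the canalicular one, 4 of 62 long circles were higher and 11 lower, or 24.2% in all, beside 8.94% higher and 11.2% lower, 20.1% in all, over all circRNAs. This split depended on scaling: it was 7 higher and 8 lower by the median of ratios, 1 and 12 by the sum of non-junction reads, and 15 and 4 by the median ratio of non-junction reads, where the median of all circRNAs itself stood at 0.55 on the log2 scale. The Atxn1 circle of exons 2 to 5, with 33 reads and no canalicular listing, was at least 9.5-fold higher (2.98 to 48.4). It was called under each of 5 scalings. Ghr, the growth hormone receptor gene, was 4.75-fold higher (1.04 to 44.1), with 11 and 2 reads. The homeobox gene Meis2, with 13 reads and no canalicular listing, was at least 3.74-fold higher (1.03 to 20.5). The engulfment gene Elmo1 was 3.24-fold higher (1.03 to 13.4), with 15 and 4 reads. All 3 were called under 4 of 5 scalings.

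Lower circles in the terminal sac library included several that had been higher in the canalicular one. Eri3, with 22 canalicular reads, and Phf21a, with 20, were not listed in the terminal sac library. They were at least 8.49-fold (2.55 to 44.3) and 7.72-fold (2.29 to 40.6) lower. Rere exons 2 to 7 was 9.27-fold lower (2.18 to 83.1; 2 and 16 reads) and the homeobox gene Zfhx3 5.4-fold lower (1.51 to 29.3; 3 and 14). These 4 were called lower under each of 5 scalings. Mipep, a mitochondrial peptidase gene, was 6.37-fold lower (1.39 to 59.1; 2 and 11), the netrin receptor gene Unc5c 5.79-fold (1.23 to 54.4; 2 and 10) and Smg6 2.61-fold (1.41 to 5.03; 16 and 36), each under 4 of 5 scalings. Rere exons 2 to 10, Rere exons 2 to 11 and Prdm6 were 2.32-fold to 2.9-fold lower and were called under 3 of 5. The comparisons of the canalicular library with its neighbours share that library, so a high canalicular count enters both.

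For the alveolar against the terminal sac library, 1 of 48 long circles was higher and 7 were lower, or 16.7% in all, beside 10.5% higher and 11.0% lower, 21.5% in all, over all circRNAs. Unc5c exons 2 to 4 was 10.8-fold higher (2.57 to 96.8), with 17 alveolar and 2 terminal sac reads; over all 4 libraries it had 9, 10, 2 and 17 reads, so that the terminal sac library stood apart as low. Ttc3 was 7.05-fold lower (1.69 to 62.7; 2 and 18 reads), Atxn1 exons 2 to 5 6.46-fold lower (2.30 to 25.1; 4 and 33) and Elmo1 5.88-fold lower (1.37 to 53.0; 2 and 15). Strbp, an RNA-binding protein gene with 17 terminal sac reads, was at least 4.44-fold lower (1.28 to 23.6). Stag1 exons 2 to 9 with 15 was at least 3.92-fold lower (1.11 to 21.1). Dyrk1a with 14 was at least 3.66-fold lower (1.02 to 19.8). None of the 3 was listed in the alveolar library. Unc5c and 5 of the 7 lower circles were called under each of 5 scalings, the exceptions being Dyrk1a and Mllt10 (2.82-fold lower, 1.01 to 9.72; 5 and 18 reads). The median log2 ratio was -0.48 over long circles and -0.23 over all circRNAs.

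By host function, chromatin and transcription regulators gave 0 higher and 3 lower of 8 circles compared in the alveolar against the pseudoglandular library, and 2 higher and 0 lower of 13 in the canalicular against the pseudoglandular one. Terminal sac against canalicular gave 1 higher and 4 lower of 15, and alveolar against terminal sac 0 higher and 2 lower of 9. Of circles on the list of kinases and phosphatases, 0 of 6, 5, 7 and 7 were called in the same 4 comparisons, but that list does not hold Dyrk1a, a kinase gene whose circle was called in 2 of them. These counts are too small to read against the background shares.

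The greatest span was that of Hpse2, a heparanase-family gene, whose circle of exons 2 to 9 covered 476280 bases (chr19:42908619-43384898) and had 4 canalicular reads for a spliced length of 1030 bases. Nckap5 exons 2 to 7 covered 473206 bases with 3 canalicular reads. A circle of Rbms3, an RNA-binding protein gene, covered 446781 bases with 4 terminal sac reads, and Gpc6 exons 3 to 5 437889 bases with 3 pseudoglandular reads. Each of these 4 was listed in a single library. In all, 261 circles exceeded 100 kb and 54 exceeded 200 kb, and those over 200 kb held 0.354%, 0.325%, 0.412% and 0.144% of exon-type reads in order of stage.

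Near the limit itself, circles just inside were those of Akap7 exons 2 to 6 (50105 bases, 5 reads), Tbcd (50157 bases, 2 reads) and Prim2 (50165 bases, 4 reads). Just outside were Usp34 (49987 bases), Smoc2 (49985 bases) and Sfswap (49946 bases), each with 2 reads.

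Both ends lay at exon boundaries of 1 annotated transcript in 739 of the 841 long circles (87.9%, 85.5 to 90.0), against 86.3% (85.6 to 86.9) of the others. In 58 further long circles 1 end did, in 13 neither, and for 31 no annotated transcript of the host held both ends. The most abundant of these 31 came from Ghr, spanned 93756 bases (chr15:3457930-3551685) and was listed in every library with 6, 6, 8 and 4 reads. A long circle wholly enclosed another protein-coding gene in 11 cases. The Nf1 circle of exons 11 to 37 enclosed Evi2, Evi2a, Evi2b and Omg, and had 2 terminal sac reads. Direct repeats (6 or more bases) marked 15 long circles (1.78%, 1.0 to 2.92) and 2.58% (2.29 to 2.9) of the others. Few alignment patterns for the reads marked 0 of the 841 (0% to 0.438%) and 31 of the others (0.289%). That mark needs 10 or more reads in a library, which 44 long circles and 950 of the others had. The counts are therefore not read as a difference.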

How the data were processed

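Total RNA of mouse lung was sequenced, per the labels, and the authors deposited 1 circRNA list per library. The columns are those of CIRI. Tools named in the submitters' processing notes, without roles, are BWA, HTSeq, StringTie, HISAT2 2.0.5 and cutadapt, with build mm10. Junction and non-junction reads are raw counts, per the file headers. The deposited junction ratio is a fraction, recomputed here as a percentage with 0 mismatches. Further filters by the authors are not given in the sources used here.

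Entries with the same chromosome, start and end were taken as 1 circRNA. Exons came from GENCODE M21 on the same build. Python 3.11.15, numpy 2.4.6, pandas 2.3.3, scipy 1.17.1 and matplotlib 3.10.9 were used. Calls were computed over every circRNA with 10 or more reads in a pair, scaled to listed junction reads, with exact conditional binomial intervals. Shares carry Clopper-Pearson intervals. The scripts were tested on simulated data.

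The long circles, lists and tests were chosen with earlier results of these data known. Named circles are the 15 with most reads, those called in the alveolar against pseudoglandular comparison, up to 6 higher and 6 lower in each step, the 5 hosts with most circles, the 5 greatest spans, the 5 highest and lowest junction ratios and 3 on each side of the span limit. Others, such as family members, were chosen after their values were seen. Some circles that these rules name are not reported here, though they stay in all counts. Alternatives changed the scaling, read minimum, span limit, denominator, merging of ends within 5 bases, boundary requirement and marked circles. The class of marked circles was defined after the data had been seen.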

Additional observations from a re-analysis of the deposited data

How the results depend on the processing

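No paired analysis was possible because each stage has 1 library. The number of long circles called moved by over 1.5 times under several settings. For alveolar against pseudoglandular, 3 were called with 20 or more reads in the pair, 3 among circles listed in both libraries, 13 above 40000 bases and 2 above 100000 bases. For canalicular against pseudoglandular, 4 were called among circles listed in both, 11 above 40000 bases and 2 above 100000 bases. For terminal sac against canalicular, 7 were called with 20 or more reads and 7 above 100000 bases. For alveolar against terminal sac, 3 were called with 20 or more reads, 5 among circles listed in both, 19 above 40000 bases and 2 above 100000 bases. Scaling by the median ratio of non-junction reads, an alternative added after seeing the data, gave 3 calls for alveolar against pseudoglandular and 13 for alveolar against terminal sac; the cause was not tested.

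Values by library follow in order of stage. The share of junction reads was 4.03%, 4.77%, 4.77% and 3.5% of the reads of all circRNAs. It was 6.92%, 7.66%, 7.5% and 5.78% above 40000 bases, 1.36%, 1.65%, 1.62% and 1.02% above 100000 bases, and 3.3%, 4.21%, 4.31% and 2.61% among circles with 5 or more reads in the library. Without marked circles it was 5.37%, 5.38% and 4.42% in the canalicular, terminal sac and alveolar libraries. The share of circRNAs was 5.44% (pseudoglandular) and 6.38% (terminal sac) of all circRNAs. It was 9.82%, 10.5%, 10.4% and 9.18% above 40000 bases and 1.85%, 2.32%, 2.12% and 1.6% above 100000 bases. With 5 or more reads it was 4.97%, 5.88% and 4.27% in the pseudoglandular, canalicular and alveolar libraries.

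The junction ratio as a median over circles was 2.65%, 2.39% and 2.22% in the pseudoglandular, canalicular and alveolar libraries. Pooled, it was 1.64%, 1.92% and 2.38% in the first 3 stages above 40000 bases. It was 2.85%, 2.51%, 2.86% and 1.92% above 100000 bases and 5.18%, 5.64%, 4.7% and 3.58% with 5 or more reads. Among circles with 10 or more reads in some library, 54.5% of long ones were in 4 libraries and 2.27% in 1, and above 100000 bases 80.8% were in 1. In all, 64 values under alternatives moved and 78 did not. Depth limits most long circles: 44 had 10 or more reads in any library.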
